A study of Mus musculus with 6 samples.

Results

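The genes described here are the tripartite motif (TRIM) family of mouse, chosen by name as every counted gene whose symbol begins with Trim and a digit, 66 of the 24015 genes counted. RNA-seq libraries were made from leukaemia stem and progenitor cells that had been sorted out of mice with overt acute myeloid leukaemia: 3 libraries came from mice left untreated and 3 from tamoxifen-treated mice. In both groups the leukaemia was driven by MLL-AF9 and had been started from lin-cKit+ bone marrow progenitors of NIKERT2 mice, which carry a Rosa-loxp-STOP-loxp-NIK allele and a Rosa-CreERT2 allele. The Cre recombinase, expressed from the Rosa locus, which is active in most cell types, needs tamoxifen to remove the stop in front of the kinase NIK (gene Map3k14). The labels used here state neither the dose and time of tamoxifen nor the mouse age or the sorting gates. Tamoxifen was given only where NIK was switched on, so drug, Cre and NIK cannot be told apart.

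TRIM proteins share an amino-terminal block of a RING finger, which in most members makes them ubiquitin ligases, 1 or 2 zinc-binding B-boxes and a coiled coil. The carboxy-terminal part differs between subfamilies and sets what a member binds: a PRY-SPRY domain in the largest group, a PHD finger and bromodomain in the chromatin group, NHL repeats, or a COS box that binds microtubules. Many members act in antiviral defence, as restriction factors or as ligases that switch the signalling of RNA sensors, Toll-like receptors and NF-kB up or down, and a subset is itself induced by interferon. TRIM28 is the corepressor that KRAB zinc finger proteins use to silence retroelements.

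Each library held 19999071 to 26773176 counts. Levels are given as CPM, counts scaled to the size of the library. A gene with 0 counts may have had up to 3, or 0.111 to 0.150 CPM at these depths, for counting error only. Map3k14 stood at 26.5, 24.2 and 28.8 CPM in the untreated libraries and at 129.8, 190.5 and 159.4 CPM in the tamoxifen libraries, which goes with the labels. Of the 6 stem and progenitor markers checked, all were present in every library, with a sum of 943 to 977 CPM untreated and 799.8 to 1116 CPM with tamoxifen, and 2 of them fell. Of 10 macrophage markers 8 were tested and 7 rose, with a sum of 70.7 to 103 CPM untreated, 526.8 CPM in tamoxifen replicate 1 and 180.9 and 222 CPM in tamoxifen replicates 2 and 3. Emr1 alone gave 69.6 to 92.3 CPM of the untreated sums. It gave 205.4, 141.8 and 147.4 CPM of the sums in tamoxifen replicates 1 to 3. Fcgr1, among the 7, reached the level needed for testing in no untreated library, so it was tested through the tamoxifen group. Late neutrophil markers summed to 172, 8.30 and 1383 CPM in untreated replicates 1 to 3 and to 132 to 343 CPM with tamoxifen. Dendritic markers summed to 4.53 to 22.9 CPM untreated and 28.4 to 35.9 CPM with tamoxifen. The B cell, T and NK cell, erythroid and megakaryocyte markers each summed to at most 48.7 CPM in any library. No dendritic, neutrophil or other marker of these types passed the test. The labels do not say whether replicates are separate mice, so the p-values reflect only the spread among these libraries, which may be technical.

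TRIM genes that passed the test were mostly higher with tamoxifen. Of the 66 members, 22 were too low to be tested, with at most 48 counts each over all libraries, and 7 of these were at 0 throughout. Of the 44 tested, 15 rose and 2 fell (edgeR's quasi-likelihood test, Benjamini-Hochberg adjusted p under 0.05 over all genes tested). That is 38.6% of the tested members, where 17.2% of all 12729 tested genes passed. The members that rose were 34.1% of those tested against 8.96% of all genes, and those that fell 4.55% against 8.24%. The level of every tamoxifen library was above every untreated library for 18 tested members, where 18.1% of all tested genes had that order, and below for 5, where 19.6% did. In either direction that makes 23 members, beside 37.7% of all tested genes. The median log2 fold change of the tested members was 0.19, beside -0.00 over all tested genes, and 29 of the 44 values were positive. Trim29 reached the level needed for testing in no untreated library, and Trim7 and Trim30b in 1, so they were tested through the tamoxifen group.

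**Figure D1:**
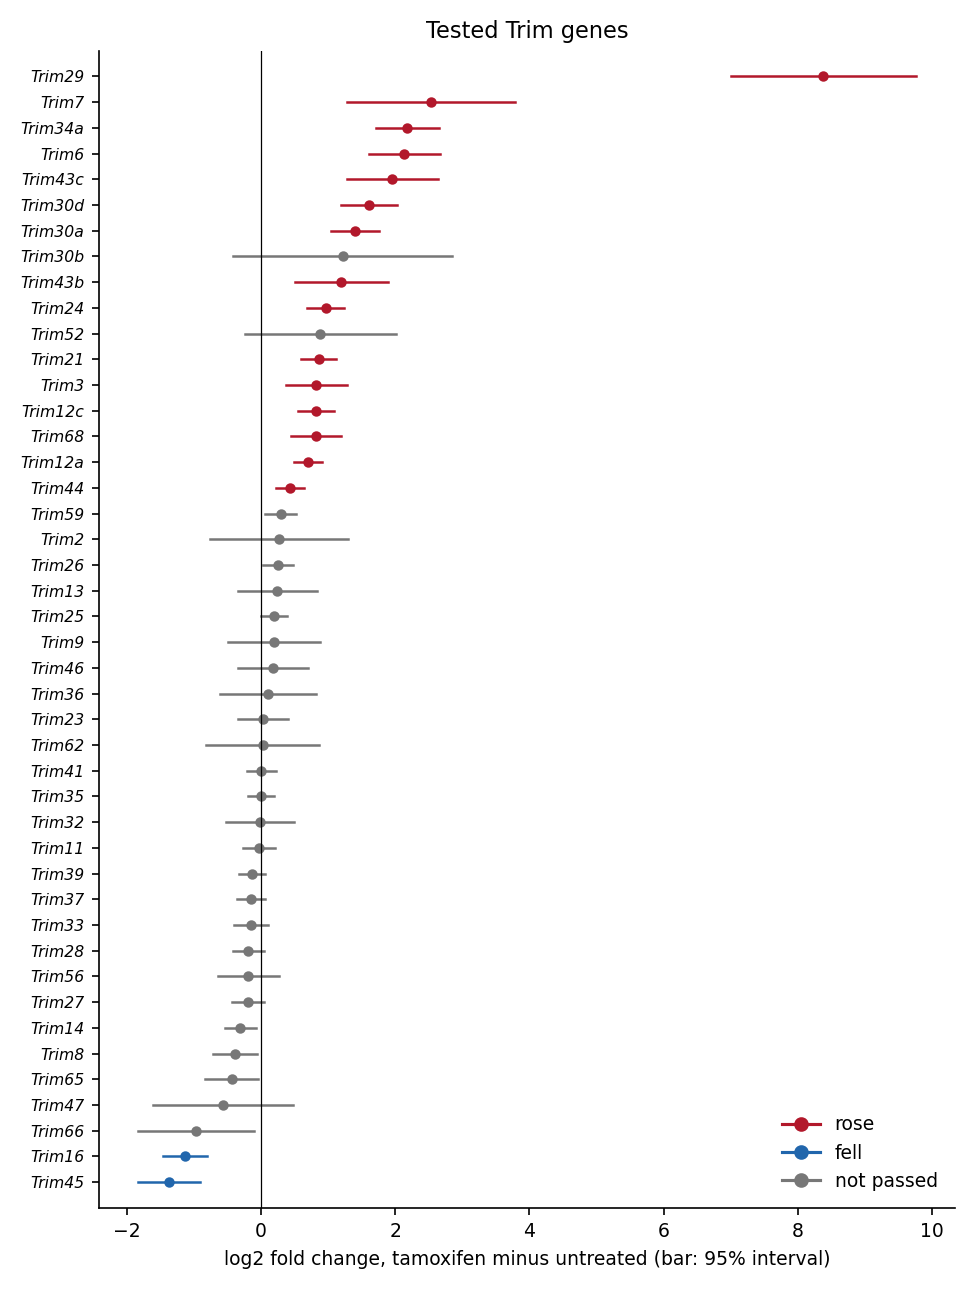
Log2 fold change (tamoxifen minus untreated) of the 44 tested Trim genes on the x axis, ordered by size, with the 95% interval as a bar. The 15 genes that rose are red, the 2 that fell, Trim45 and Trim16, are blue, and the 27 that did not pass are grey.

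Of the members that rose, 6 lie side by side. In the RefSeq gene order of GRCm38 (the counts were made on another build, so only the order is used), 9 members follow each other on chromosome 7 with at most 1 other counted gene between neighbours: Trim6, Trim34a, Trim12a, Trim34b, Trim12c, Trim30b, Trim30a, Trim30d and the pseudogene Trim30e-ps1. Most of these are PRY-SPRY genes, the rodent counterparts of the cluster that holds the retroviral restriction factor TRIM5 in primates. Of the 7 tested, 6 rose, none fell and all 7 fold changes were positive, with a median log2 fold change of 1.40. Of the 37 tested members elsewhere 9 rose and 2 fell, 24.3% and 5.41%, with a median of 0.03. The run on chromosome 7 arose by gene duplication and its members share sequence, so their changes are not separate observations of equal weight.

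Trim34a, whose human counterpart is an interferon-induced relative of TRIM5, and Trim6 had the larger fold changes of the run. Trim34a stood at 4.87, 7.03 and 7.94 CPM untreated and at 28.5, 27.3 and 34.5 CPM with tamoxifen, so the lowest tamoxifen library was far above the highest untreated library. The log2 fold change was 2.18 with a standard error (SE) of 0.20 (edgeR adjusted p = 0.000349). Its near copy Trim34b had only 18 counts in all 6 libraries. In the GENCODE M21 transcripts, 59.7% of the 50-base words of Trim34a occur in another gene, 39.8% in Trim34b. The labels do not say how reads with several positions were counted, so the split between these copies is uncertain. Exons of Gm47248 on the opposite strand overlap 609 of the 2592 exonic bases of Trim34a, and the labels do not state whether the counting used strand.

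Trim6, first gene of the run, encodes a ligase whose free ubiquitin chains activate the kinase IKK epsilon in interferon signalling. Its level was 3.48, 3.01 and 4.30 CPM untreated and 19.1, 15.6 and 12.8 CPM with tamoxifen. The lowest tamoxifen library was well above the highest untreated one, and the log2 fold change was 2.14 (SE 0.23, edgeR adjusted p = 0.000735). Only 1.51% of its 50-base words occur in another gene.

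The Trim30 genes came next. Trim30a, which in macrophages restrains Toll-like receptor signalling to NF-kB by promoting the loss of TAB2 and TAB3, was at 22.9, 33.0 and 29.5 CPM untreated and at 67.3, 70.8 and 87.6 CPM with tamoxifen. Its neighbour Trim30d was at 8.40, 10.6 and 9.28 CPM untreated and at 24.1, 26.9 and 35.3 CPM with tamoxifen. For both genes the groups stayed well apart, with log2 fold changes of 1.40 (SE 0.16, edgeR adjusted p = 0.000877) for Trim30a and 1.61 (SE 0.18, edgeR adjusted p = 0.000866) for Trim30d. They share few 50-base words, 5.98% of those of Trim30a and 6.39% of those of Trim30d with each other.

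Trim30b did not pass (log2 1.21, SE 0.71, edgeR adjusted p = 0.287). Its level was 0.298 and 0.212 CPM in untreated replicates 1 and 2, but 1.56 CPM in untreated replicate 3, within the 1.16 to 2.17 CPM of the tamoxifen libraries. Untreated replicate 3 is also the library with the highest sum of late neutrophil markers, whose part in this value was not tested. Without untreated replicate 3, Trim30b passed (log2 2.68, edgeR adjusted p = 0.0289).

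Trim12a and Trim12c, the mouse relatives of TRIM5, changed less than the other members of the run that rose. Trim12a went from 29.1, 28.0 and 31.3 CPM untreated to 47.7, 44.9 and 50.9 CPM with tamoxifen, and Trim12c from 44.0, 47.0 and 51.6 CPM to 71.4, 88.1 and 90.8 CPM. The spread within each group was small beside the step between the groups, with log2 fold changes of 0.70 (SE 0.09, edgeR adjusted p = 0.00188) for Trim12a and 0.81 (SE 0.12, edgeR adjusted p = 0.00297) for Trim12c. Of the 50-base words of Trim12c, 33.7% occur in another gene, 24.2% in Trim5, a symbol with no row in the counts.

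**Figure D2:**
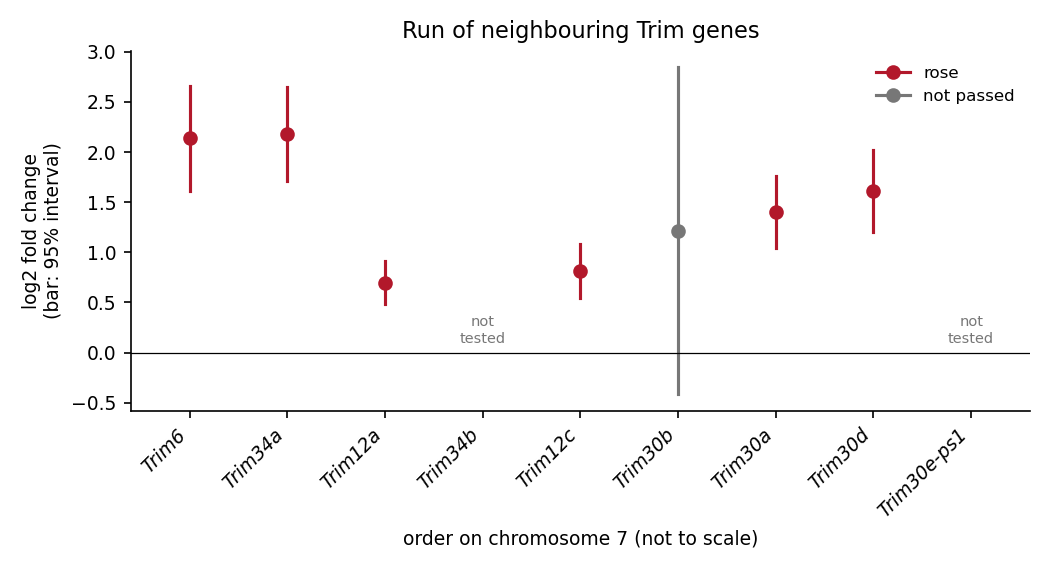
Log2 fold change (y axis, bar: 95% interval) of the 9 neighbouring Trim genes in their order on chromosome 7 (x axis, not to scale). All 7 tested genes lie above 0, Trim6 and Trim34a highest and Trim12a lowest, and the interval of Trim30b spans 0.

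The interferon-stimulated response element, a site bound by IRF factors, was looked for as its core GAAANNGAAA on both strands in the RefSeq promoter windows of GRCm38.p6, from 250 bases before to 50 bases after each annotated start. The windows held 50 of the 66 members. The core was found in 8 of them, Trim12a, Trim12c, Trim2, Trim21, Trim26, Trim30a, Trim30d and Trim34a, against 3.99% of all 27025 genes with a window. Among the tested members with a window it stood in 6 of the 11 that rose and in 2 of the 21 that did not, Trim2 and Trim26. Trim29, Trim3, Trim43b and Trim43c rose and have no window. The 30-base stretches around the core are shown for the risen members of the run that hold it, and for Trim21 and Trim26. Capitals mark the core, overlapping cores run together, and the sequences are on the strand of the gene, from RefSeq.
Trim34a (chr7:104244457-104244486, plus strand): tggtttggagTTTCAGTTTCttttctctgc
Trim12a (chr7:104315466-104315495, minus strand): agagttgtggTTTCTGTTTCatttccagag
Trim12c (chr7:104353359-104353388, minus strand): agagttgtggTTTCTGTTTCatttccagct
Trim30a (chr7:104465210-104465239, minus strand): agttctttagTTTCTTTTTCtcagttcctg
Trim30d (chr7:104507871-104507900, minus strand): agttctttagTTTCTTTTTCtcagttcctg
Trim21 (chr7:102565450-102565479, minus strand): cctctgagagGAAACTGAAAGTGAAAtttg
Trim26 (chr17:36836982-36837011, plus strand): ccgaTTTCACTTTCCTTTTCtcgggcccgg

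The stretches of Trim12a and Trim12c were identical at 28 of 30 positions, and those of Trim30a and Trim30d at all 30. Over the 60 bases shown next, all of them before the annotated start, Trim30a and Trim30d were identical at 59 positions, so these copies hold a shared promoter sequence rather than separate occurrences of the core.
Trim30a: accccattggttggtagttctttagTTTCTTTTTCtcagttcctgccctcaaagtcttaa
Trim30d: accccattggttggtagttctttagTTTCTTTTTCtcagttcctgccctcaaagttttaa
The core in Trim34a, Trim12a and Trim21 lay just after the annotated start. Trim6, Trim7, Trim24, Trim44 and Trim68, which also rose, had a window without the core. A kappaB site searched as GGGANNTTCC on both strands, the kind of site that NF-kB dimers bind, was found in 1.63% of all genes with a window, in none of the 11 risen members with a window and, among the members, in Trim28 alone. A match is a stretch of letters and shows no binding, and a missing match says only that these letters are not in this window.

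Of the 14 TRIM genes listed as interferon-inducible from textbook knowledge, 12 had a row and 11 were tested: 6 rose and none fell, beside 8.96% and 8.24% of all tested genes, and the median log2 fold change was 0.81. Besides Trim34a, Trim12a, Trim12c, Trim30a and Trim30d these include Trim21, the cytosolic antibody receptor that sends antibody-coated virus to the proteasome. Trim21 stood at 24.7, 21.9 and 22.5 CPM untreated and at 46.4, 41.3 and 37.3 CPM with tamoxifen. Its groups were clearly apart, with a log2 fold change of 0.86 (SE 0.11, edgeR adjusted p = 0.00179).

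The other members of that list did not pass. Trim25, the ligase that ubiquitinates the RNA sensor RIG-I, was at 89.4, 83.2 and 90.7 CPM untreated and at 96.4, 99.0 and 105 CPM with tamoxifen, a log2 difference of 0.19 with a 95% interval of 0.00 to 0.38 (edgeR adjusted p = 0.155). Trim26, which carries the core shown above, was at 33.6, 28.1 and 31.0 CPM untreated and at 35.4, 36.9 and 37.5 CPM with tamoxifen (log2 0.25, 95% interval 0.02 to 0.47, edgeR adjusted p = 0.126). For both genes every tamoxifen library was above every untreated one, by a small step. Trim14, an adaptor of the mitochondrial antiviral protein MAVS that lacks a RING finger, was lower in every tamoxifen library, 61.3, 52.6 and 53.5 CPM against 74.1, 64.0 and 69.8 CPM (log2 -0.31, edgeR adjusted p = 0.0671), and passed as lower without tamoxifen replicate 1 (log2 -0.39, edgeR adjusted p = 0.0157). Of the 50-base words of Trim14, 29.5% also occur in transcripts of the neighbouring gene Nans.

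Trim56, which acts in cytosolic DNA and RNA sensing, was at 40.8, 36.9 and 37.8 CPM untreated and at 22.6, 41.0 and 37.5 CPM with tamoxifen. Tamoxifen replicate 1 alone was low, and it is also the library with the highest sum of macrophage markers, whose part in this value was not tested. The log2 difference was -0.19 (edgeR adjusted p = 0.563) with all libraries and 0.03 (edgeR adjusted p = 0.860) without that replicate.

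The proteins that these TRIM ligases act on or signal through were given by a list of 26 sensing and interferon signalling genes, all tested. Of these 12 rose and 1 fell, beside 8.96% and 8.24% of all tested genes, and the median of their log2 fold changes was 0.40. Among them Ddx58, the gene of RIG-I, went from 12.99 ± 2.72 to 54.8 ± 3.47 CPM, Irf7, the inducible transcription factor of interferon genes, from 5.83 ± 1.54 to 32.6 ± 6.24 CPM, and Irf9, an IRF factor that binds the element shown above, from 39.2 ± 0.289 to 80.4 ± 8.59 CPM (SD, n = 3). Dhx58, a further RNA sensor of the RIG-I family, had a log2 fold change of 1.19 (SE 0.12, edgeR adjusted p = 0.000523). The gene that fell was Mavs, named after its value was seen, which encodes the partner of TRIM14 and went from 38.0 ± 3.68 to 26.8 ± 1.17 CPM (SD, n = 3; log2 -0.50, edgeR adjusted p = 0.0144). Tab2 (log2 -0.10, edgeR adjusted p = 0.611) and Tab3 (log2 0.36, edgeR adjusted p = 0.0899), partners of TRIM30A also named after their values were seen, did not pass.

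Trim29 showed the largest change of the family. It encodes ATDC, a member without a RING finger that is best known from epithelia and from the DNA damage response. The untreated libraries held 0, 1 and 3 counts and the tamoxifen libraries 602, 413 and 283, which is 0, 0.0424 and 0.111 CPM against 30.1, 19.2 and 12.5 CPM. The gene was thus near or below the limit of 3 counts in every untreated library and plainly present in every tamoxifen library. The fitted log2 fold change was 8.38 (SE 0.60, edgeR adjusted p = 0.000123) and rests on 4 counts in the untreated group, so its size is imprecise. None of the 50-base words of Trim29 occurs in another gene, and no other gene overlaps its exons in GENCODE M21. Without untreated replicate 3 the fitted log2 fold change was 9.50. Its level was highest in tamoxifen replicate 1, the library with most macrophage markers. In tamoxifen replicates 2 and 3, at 19.2 and 12.5 CPM, the macrophage markers summed to 180.9 and 222 CPM. Among the 15 risen members, tamoxifen replicate 1 was the highest tamoxifen library for 3 and the lowest for 8. The part of macrophages in the rise of Trim29 was not tested.

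Trim7, whose product binds glycogenin, was the other member that came up from a very low level. It had 3, 4 and 15 counts untreated and 37, 42 and 34 counts with tamoxifen, 0.149, 0.169 and 0.557 CPM against 1.85, 1.95 and 1.504 CPM. The groups did not overlap, and the log2 fold change was 2.53 (SE 0.54, edgeR adjusted p = 0.0161). It missed the threshold without untreated replicate 1, untreated replicate 2 or tamoxifen replicate 2 (edgeR adjusted p = 0.0736, 0.0683 and 0.0501), and its log2 fold change was 3.43 without untreated replicate 3. Its immediate neighbour Trim41 did not pass (log2 0.00, 95% interval -0.21 to 0.22). Exons of Gm12184 and Gm16170 on the opposite strand each overlap at most 368 of the 2937 exonic bases of Trim7. Of the 50-base words of Trim7, 6.46% occur in another gene, and strand use in the counting is not stated.

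The Trim43 genes, close copies on chromosome 9 that are known from the early embryo, were present at low levels. Trim43c was at 3.08, 3.01 and 2.86 CPM untreated and at 7.94, 16.6 and 10.2 CPM with tamoxifen, with almost no spread among the untreated libraries and a wide one among the tamoxifen libraries (log2 1.96, SE 0.30, edgeR adjusted p = 0.00365). Trim43b was at 1.54, 1.48 and 1.56 CPM untreated and at 2.85, 4.45 and 3.23 CPM with tamoxifen (log2 1.198, SE 0.30, edgeR adjusted p = 0.0298), a call lost without any 1 library other than tamoxifen replicate 1 (edgeR adjusted p 0.0650 to 0.108). Trim43a had 20 counts in all and was not tested. Of the 50-base words of Trim43c 58.6% and of Trim43b 47.7% occur in another gene, mostly each other's copies, so the split among the Trim43 genes is uncertain. The exons of Trim43c also overlap those of 9330159M07Rik on the opposite strand, which rose from 12.3 ± 0.677 to 60.1 ± 14.7 CPM (SD over 3 libraries; log2 2.29, edgeR adjusted p = 0.000135). The overlap covers 768 of the 1990 exonic bases of Trim43c. Whether the counting used strand is not stated in the labels, so reads within that overlap cannot be assigned to 1 of the genes.

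**Figure D3:**
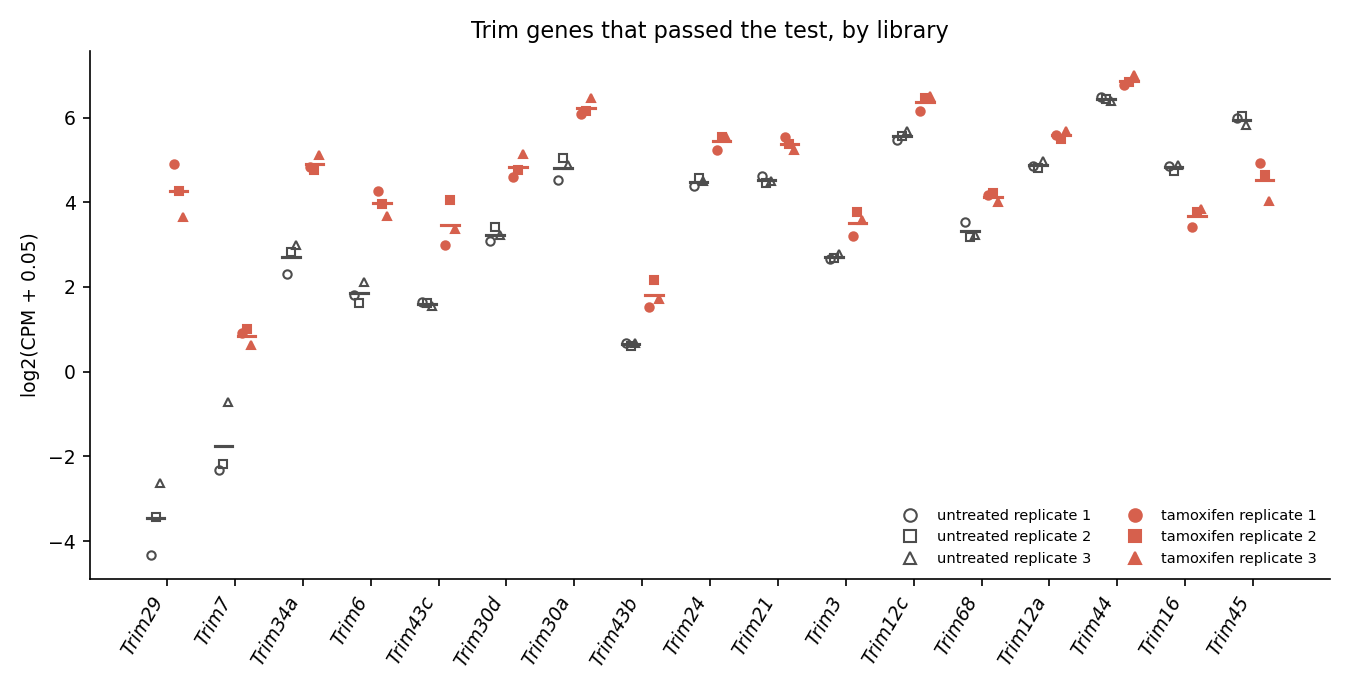
Level of the 17 Trim genes that passed, as log2 of CPM plus 0.05 (y axis), by gene (x axis, ordered by log2 fold change). Open grey symbols are untreated and filled red symbols tamoxifen libraries, symbol shape gives the replicate, and bars are the mean of 3; the groups do not overlap for any of the 17.

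Among the chromatin members, which carry a PHD finger and a bromodomain, Trim24 alone passed. Trim24, a coregulator of nuclear receptors and a ligase for p53, was at 20.8, 23.6 and 22.7 CPM untreated and at 37.4, 46.3 and 46.8 CPM with tamoxifen. The highest untreated library was well below the lowest tamoxifen library, with a log2 fold change of 0.96 (SE 0.12, edgeR adjusted p = 0.00134). Trim28 was the most abundant member in every library, 557, 554 and 474 CPM untreated and 509, 456 and 422 CPM with tamoxifen. The groups overlapped and the log2 difference of -0.19 had a 95% interval of -0.43 to 0.04 (edgeR adjusted p = 0.243).

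Per exonic length in GENCODE M21, the level of Trim28 was 163 ± 14.5 CPM per kb untreated (SD, n = 3), well above Trim27 at 31.8 ± 2.21 and Trim14 at 31.7 ± 2.31 CPM per kb, which did not differ beyond their spread. Trim28 made up 25.1 to 28.3% of all counts on TRIM genes in the untreated libraries and 20.8 to 24.9% in the tamoxifen libraries. Trim33, a partner of SMAD proteins in TGF-beta signalling, did not pass (log2 -0.15, 95% interval -0.40 to 0.10). Trim66, the member of this group best known from the testis, was at 7.20, 3.52 and 7.42 CPM untreated and at 3.796, 1.995 and 3.45 CPM with tamoxifen, overlapping between the groups (log2 -0.97, SE 0.37, edgeR adjusted p = 0.114). Of 12 partners of TRIM28 in repression, all tested, 1 passed, no larger a share than the 17.2% of all tested genes. This was the remodeller gene Chd3, which stood at 18.0, 16.8 and 16.03 CPM untreated and at 59.9, 28.7 and 36.0 CPM with tamoxifen, highest in tamoxifen replicate 1 (log2 1.29, SE 0.25, edgeR adjusted p = 0.0105).

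Trim45 and Trim16 were the members that fell. Trim45, the ligase with a filamin-type domain, was at 63.7, 65.4 and 56.4 CPM untreated and at 30.5, 24.8 and 16.4 CPM with tamoxifen. Each tamoxifen library was clearly below each untreated one, though the tamoxifen libraries differed among themselves (log2 -1.37, SE 0.20, edgeR adjusted p = 0.00325). Trim16, also called oestrogen-responsive B-box protein, lacks a RING finger and takes part in the autophagy of damaged lysosomes. It stood at 28.9, 26.6 and 29.4 CPM untreated and at 10.6, 13.6 and 14.2 CPM with tamoxifen (log2 -1.14, SE 0.14, edgeR adjusted p = 0.0015). Its exons overlap those of the next gene, Fbxw10, on the same strand, which differed by -1.18 (edgeR adjusted p = 0.0517), and 4.13% of its 50-base words occur there.

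The remaining risen members belong to no single subfamily. Trim44, a B-box protein without a RING finger that keeps other proteins from degradation, was at 89.6, 87.1 and 83.9 CPM untreated and at 108, 115 and 129 CPM with tamoxifen, a small but separate step (log2 0.43, SE 0.09, edgeR adjusted p = 0.0155), a call lost without any 1 untreated library (edgeR adjusted p 0.0604 to 0.0640). Trim68, a coregulator of the androgen receptor, was at 11.6, 8.98 and 9.39 CPM untreated and at 18.1, 18.5 and 16.01 CPM with tamoxifen (log2 0.81, SE 0.16, edgeR adjusted p = 0.0122). Trim3, an NHL repeat protein best known from neurons, was at 6.31, 6.40 and 6.86 CPM untreated and at 9.14, 13.5 and 11.99 CPM with tamoxifen (log2 0.82, SE 0.20, edgeR adjusted p = 0.0257), a call lost without any 1 library other than tamoxifen replicate 1 (edgeR adjusted p 0.0581 to 0.103). Trim68, Trim3 and Trim21 also lie on chromosome 7, outside the run described above. In all, 9 of the 12 tested members on that chromosome rose, against 6 of 32 on the others. Of these 9, 6 belong to the run. Over all chromosomes 8.96% of tested genes rose, and the share for all genes of chromosome 7 was not counted.

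By architecture, the PRY-SPRY list left out Trim16, which fell, and Trim14, both placed with the members without a RING finger. Its counts hold for the list as drawn, not for every gene with that domain. Whether each listed mouse gene, Trim12a among them, encodes the domain was not checked. Of the 22 tested genes of the list 11 rose and none fell, with a median log2 fold change of 0.75. Of all tested genes 8.96% rose. Of these 11, 6 lie in the run on chromosome 7. The other architectures had 2 to 5 tested members each, too few to set against that share. Trim3 was the NHL repeat member that rose, Trim45 the member of a single architecture that fell, and no tested COS box or membrane-anchored gene with a Trim symbol passed. Of the 5 members without a RING finger, Trim29 and Trim44 rose and Trim16 fell. Of 9 listed genes of TRIM proteins and their relatives that carry other names, 6 were tested and 2 rose, both of them COS box genes. Mid1, the microtubule-bound member mutated in Opitz syndrome, stood at 24.1, 25.1 and 23.5 CPM untreated and at 39.4, 48.5 and 40.4 CPM with tamoxifen (log2 0.82, SE 0.11, edgeR adjusted p = 0.00188). Its paralog Mid2 had 1, 3 and 0 counts untreated and 40, 14 and 26 counts with tamoxifen (log2 4.34, SE 0.84, edgeR adjusted p = 0.0109). It reached the level needed for testing in no untreated library, so it was tested through the tamoxifen group. It missed the threshold without untreated replicate 1 (edgeR adjusted p = 0.0597), and its log2 fold change was 5.53 without untreated replicate 2 and 3.72 without untreated replicate 3. Pml, the scaffold of nuclear bodies and a classic interferon-induced member, did not pass (log2 0.18, 95% interval -0.08 to 0.44, edgeR adjusted p = 0.327).

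The 27 tested members that did not pass lay between -0.97 and 1.21 on the log2 scale, 14 above and 13 below 0, with 23 of them within 0.5 of 0. For 22 of the 27 the 95% interval of the log2 fold change excluded a change of 1 in either direction. Trim35 was at 79.9, 84.1 and 74.4 CPM untreated and at 77.2, 78.2 and 83.1 CPM with tamoxifen, with a 95% interval of -0.20 to 0.20 around a log2 difference of 0.00. Trim35 was picked after its values were seen, as were Trim41, Trim27 and Trim59.

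Some calls were lost when single libraries were left out, which also leaves the test fewer data. Without untreated replicate 1, for instance, 586 of all genes rose, against 1140 with all libraries. Leaving out a library does not bear on reads shared with near copies or overlapping genes, as for Trim34a and Trim43c. Of the 17 members that passed, Trim29, Trim34a, Trim6, Trim30a, Trim30d, Trim24, Trim21, Trim12a, Trim12c, Trim43c, Trim68, Trim45 and Trim16 passed whichever library was left out, with Trim68 nearest to the threshold (edgeR adjusted p up to 0.0499). Trim7, Trim3, Trim43b and Trim44 did not, as given beside their values. Without tamoxifen replicate 1 all 15 members that rose still did, Trim59 rose as well (log2 0.35, edgeR adjusted p = 0.0253), and Trim14 and Trim27 fell beside Trim45 and Trim16. Macrophage markers were also higher in tamoxifen replicates 2 and 3 than in any untreated library, and their part in the changes of the TRIM genes was not tested. In these sorted samples, more cells of a type and more RNA per cell cannot be told apart.

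**Figure D4:**
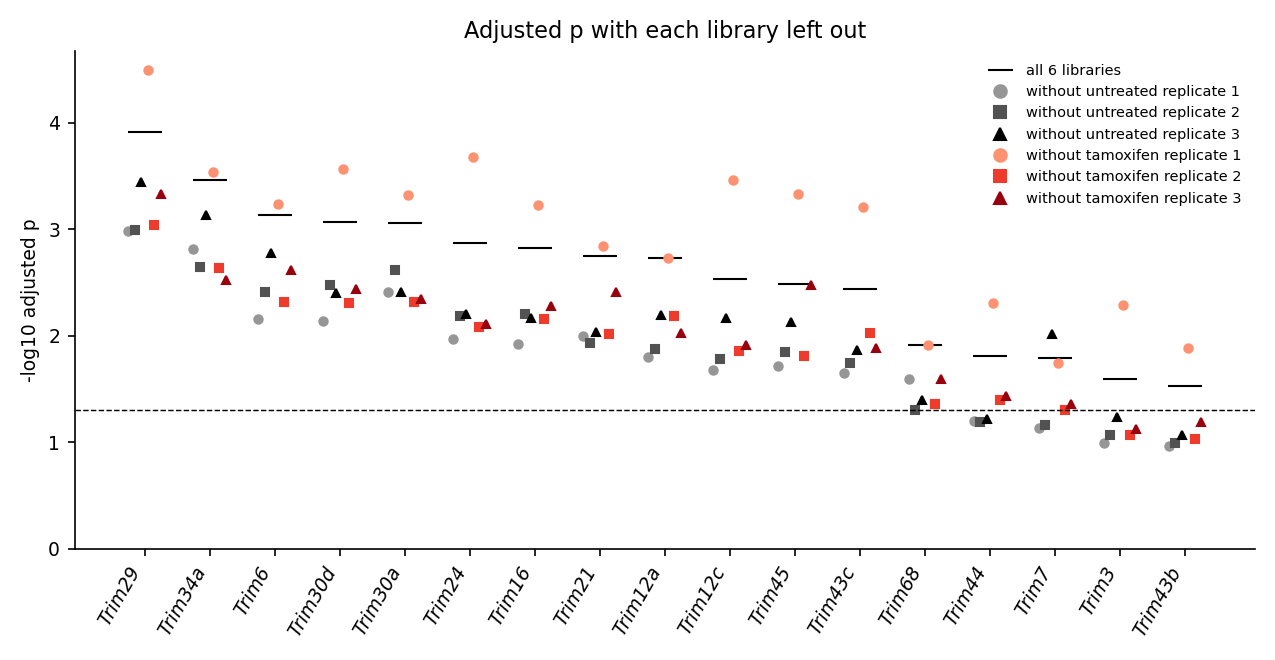
Minus log10 of the edgeR adjusted p (y axis) of the 17 Trim genes that passed (x axis, ordered by p), with all libraries (black bar) and with each library left out (points). The dashed line is the threshold of 0.05; points of Trim44, Trim7, Trim3 and Trim43b fall below it, and leaving out tamoxifen replicate 1 gave no value below it.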

How the data were processed

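The authors deposited raw counts, 1 file for each library with a whole number for each gene symbol. FastQC, TopHat2 2.1.0, featureCounts, DESeq2 and the build mm9 are named, without role or order, per the submitters' processing notes; annotation, strand setting and the treatment of reads with several positions are not stated there. With edgeR 4.0.16 under R 4.3.3, library sizes were scaled by TMM, filterByExpr (minimum count 10) left 12729 of 24015 genes, and groups were compared with glmQLFit and glmQLFTest, two-sided, with Benjamini-Hochberg adjustment over all genes tested and a threshold of 0.05. CPM values are TMM-scaled, SE was taken as |log2 fold change| divided by the root of F, and intervals use the fit's degrees of freedom. The test was tried on simulated counts first.

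The members and gene lists were chosen with earlier results of these data known, so no list gives independent support. Named were all members that passed, the tested interferon-inducible and chromatin members, relatives that passed, and up to 4 passing genes per partner list; other names were chosen after their values were seen. Alternatives were RLE, upper quartile and no factors, no filter, a stricter filter (CPM over 1, 3 libraries or more), limma voom (limma 3.58.1), DESeq2 1.42.0, the replicate number as a block, and leaving out each library. All 66 members matched GENCODE M21 and RefSeq (GRCm38) by symbol or synonym. These served for exonic length, words of 50 bases shared between transcripts on either strand, gene order and promoter windows.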

Additional observations from a re-analysis of the deposited data

How the results depend on the processing

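With RLE, upper quartile or no scaling factors, without the filter, with the stricter filter, with DESeq2 and with limma voom the same 15 TRIM genes rose; the same 2 fell, with Trim8 in addition under DESeq2 (log2 -0.39, adjusted p = 0.0470). With single libraries left out, 11 to 16 TRIM genes rose and 2 to 4 fell, beside 586 to 1632 and 443 to 1636 of all genes. The lowest numbers over all genes came without untreated replicate 1 and the highest without tamoxifen replicate 1, which gave 4 TRIM genes that fell. Of the named genes, Trim56 reversed, from -0.19 to 0.028 without tamoxifen replicate 1 (range with single libraries left out -0.36 to 0.028); no other member that passed, no other interferon-inducible or chromatin member and none of Map3k14, Mid1, Mid2, Ddx58, Irf7, Irf9, Dhx58 and Chd3 changed sign under any alternative run. Signs of the other genes named were not followed. With the replicate block 13 TRIM genes rose and 2 fell; Trim3 (adjusted p = 0.0516) and Trim43b (0.0714) missed the threshold. The labels do not say that the numbers pair libraries. The deviations of same-numbered libraries from their group means correlated at 0.12, -0.11 and 0.11. With 3 libraries in each group these values cannot decide whether the numbers pair libraries. Depth limits how well the size of the change is known for Trim29, Trim7, Trim30b and Mid2. The 22 members not tested were too low for the filter, so the main test gave no value for them.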

Other observations

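Outside the family, 23 counted genes are the immediate neighbours, in RefSeq order, of TRIM genes that passed. Of these 11 were tested, 4 rose and none fell, where 8.96% of all tested genes rose. Next to Trim29 lies Thy1, a surface antigen of T cells and neurons, which rose from 6.73 ± 1.30 to 709 ± 109 CPM (SD, n = 3; log2 6.72, edgeR adjusted p = 3.02e-06). Next to Trim43b lies Bcl2a1a, an anti-apoptotic gene and known NF-kB target, which rose from 0.919 ± 0.495 to 10.9 ± 2.90 CPM (SD, n = 3; log2 3.55, edgeR adjusted p = 0.00112); it has near copies among the Bcl2a1 genes, so the split between them is uncertain. Next to Trim7 lies Irgm1, an interferon-inducible GTPase gene, which rose from 17.6 ± 0.790 to 29.3 ± 1.29 CPM (SD, n = 3; log2 0.73, edgeR adjusted p = 0.00286). The fourth was 9330159M07Rik beside Trim43c, whose exons overlap as given above, so their changes need not be separate observations. The other neighbour of Trim43b, Bcl2a1b, did not pass (log2 0.78, edgeR adjusted p = 0.479). Gm15133 beside Trim12a and Zfp286 and Fbxw10 beside Trim16 did not pass either. The tested neighbours of Trim3, Trim44 and Trim45 did not pass, and those of Trim24 were too low to be tested.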
